A study of Mus musculus with 8 samples.

Results

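The genes described here encode the voltage-gated sodium channels (Scn), the voltage-gated calcium channels (Cacna1, Cacna2d, Cacnb and Cacng) and the hyperpolarization-activated channels (Hcn), measured in the brainstem (BS) of KI and control mice. They were taken by symbol: every gene named Scn with a number and the ending a or b, Cacna1 with a letter from a to s, Cacna2d1 to Cacna2d4, Cacnb1 to Cacnb4, Cacng1 to Cacng8 and Hcn with a single number, except Cacng4, which was left out. This gave 43 of the 24081 genes in the table, and no measured value was used to choose them. The data were 8 BS RNA-seq libraries from untreated C57BL/6 mice at P19, 4 from control mice and 4 from KI mice. Both groups carried Nestin Tv-a, p53 fl/fl and a Tv-a/Cre allele at Olig2, so that p53 was removed in Olig2-progenitors of control and KI mice alike. KI mice carried, besides, hPDGFRA fl/+, the human PDGFRA cDNA inserted in Rosa26 behind a CAG promoter and a floxed STOP cassette. Cre acts only in cells that express or descend from cells that expressed Olig2, whereas each library held RNA of the whole BS. Hence, fewer cells of a type and less RNA per cell cannot be told apart in these data.

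Sodium channels carry the upstroke of the action potential. Each has a pore-forming alpha subunit (Scn1a, Scn2a, Scn3a, Scn8a and others), and the beta subunits (Scn2b, Scn3b, Scn4b and others) adjust its gating and hold it at the membrane. In myelinated axons, Scn8a (Nav1.6) is the main alpha subunit of mature nodes of Ranvier, and Scn2a (Nav1.2) is common in unmyelinated axons and in immature nodes. Calcium channels couple depolarization to transmitter release, gene expression and firing pattern. Their pore is a Cacna1 protein, a cytoplasmic beta subunit (Cacnb) and an extracellular alpha2delta subunit (Cacna2d) bring it to the membrane, and most of the brain's gamma subunits (Cacng) are better known as partners of AMPA receptors. HCN channels open on hyperpolarization, carry a mixed sodium and potassium current and help to set resting potential and pacemaking.

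The deposited value of a gene in a library was a normalized count, made by the authors from a read count and the DESeq2 size factor of its library. Undoing that step gave totals of 24816146 to 27716846 reads for the controls and 21492789 to 24458589 for the KI libraries, with no overlap in depth. The libraries also differed in ways that the labels do not give. The normalized count of Xist was 4155 in control replicate 2, 7792 in control replicate 3 and 8943 in KI replicate 4. It was at most 43.9 in the other libraries. Ttr, a choroid plexus gene, was low in 2 libraries, control replicate 4 (44.9) and KI replicate 3 (237), and lay at 14985 to 97274 elsewhere. As a check of the targeted locus, Gt(ROSA)26Sor had 82.9 to 93.9 normalized counts in control mice, 573 to 605 in KI replicates 1 to 3 and 328 in KI replicate 4. KI replicate 4 was also the lowest KI library in Pdgfra, at 3269. The other KI libraries had 8939 to 11437 and control mice 2565 to 3087. Reads were aligned to the mouse genome, and whether reads of the human cDNA were counted for Pdgfra was not tested. The 10 hindbrain identity genes fixed for this tissue were all detected, with summed normalized counts of 1710 to 4614 in control and 2346 to 6216 in KI mice. None passed the test, but their median log2 fold change was 0.49, toward higher values in KI mice. Whether the libraries held the same levels of the BS was not tested.

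Of the 43 genes, 6 had a mean under 10 normalized counts and were not tested: Cacna1f, Cacng1, Cacng6, Scn4a, Scn10a and Scn11a. Cacna1f is known from the retina, Scn4a, Cacng1 and Cacng6 from muscle, and Scn10a and Scn11a from sensory ganglia. Their normalized counts ranged from 0 to 12.3 over the libraries. The other 37 genes were compared by limma, using log2(normalized count + 1), Benjamini-Hochberg adjustment across all 15123 genes tested and a threshold of 0.05. On this scale a log2 fold change understates the change of genes with low counts. Hcn4, Hcn3, Cacna2d4 and Scn8a fell in KI mice, Cacnb4 rose, and the other 32 did not pass the test. The 5 called genes were 13.5% of the 37, whereas 24.4% of all genes tested were called (12.4% lower and 12.0% higher). The share was lower than among genes in general, and that difference was not tested. The same 5 genes were those in which the 4 KI libraries did not overlap the 4 control libraries, 4 below and 1 above, while 25.5% of all genes tested did not overlap (12.8% below and 12.7% above). On the recovered reads, DESeq2 called these 5 and Hcn2, against 29.2% of all genes, and edgeR called the same 5, against 24.0%. The log2 fold change was negative for 25 of the 37 and positive for 12, and its median was -0.11, against -0.0040 over all genes tested.

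**Figure D1:**
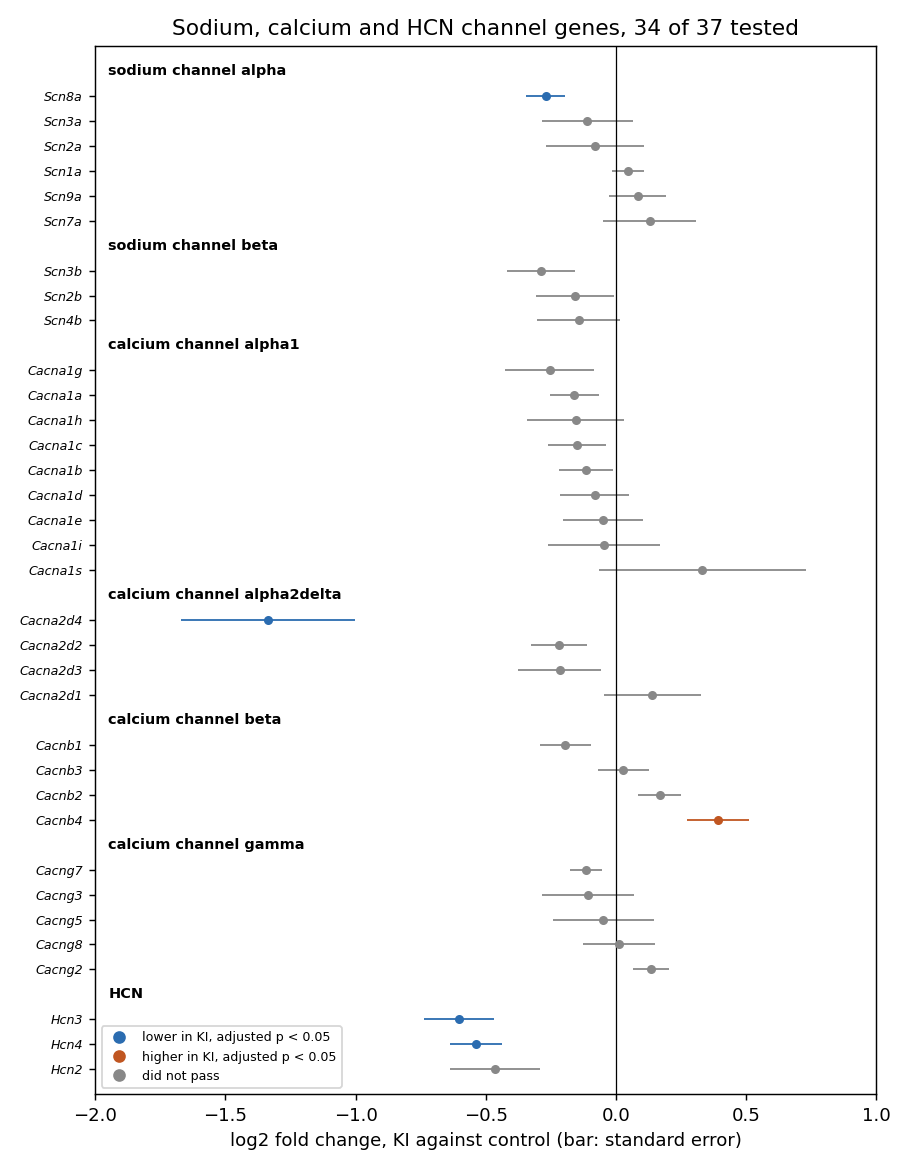
Log2 fold change of 34 of the 37 tested channel genes, KI against control, on the log2(normalized count + 1) scale, ordered by family. Points are limma estimates, bars are their standard errors (n = 4 per group), and the 5 genes past the adjusted threshold are marked; Cacna2d4 lies at -1.34, and Hcn3, Hcn4 and Scn8a lie between -0.60 and -0.27, with Cacnb4 at 0.39.

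Of the 4 HCN genes, all tested, 2 were called, both lower, against 12.4% of all genes tested that were called lower. The family had the lowest median log2 fold change, -0.50, a value that rests on 4 genes. Hcn4, the subunit of the heart's pacemaker that is also found in subcortical neurons, had 731.9, 942, 695.8 and 787.1 normalized counts in control replicates 1 to 4 and 521.2, 507.6, 555.1 and 579.6 in the KI replicates. Every KI library lay below every control library. The mean fell from 789 ± 109 (SD, n = 4) to 541 ± 32.6 (SD, n = 4), and the log2 fold change was -0.54 (SE 0.101, limma adjusted p = 0.0117). It passed the threshold when any one library was left out, with an adjusted p from 0.00421 to 0.0453. Hcn4 lies on chromosome 9, at 58823412 to 58863175 of GRCm38.

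Hcn3, a subunit with slow gating and little response to cAMP, fell by a similar amount. Its normalized counts were 419.9, 517.1, 332.9 and 457 in control mice and 283.7, 311.3, 255.3 and 274.3 in KI mice, again with no overlap. The means were 432 ± 77.1 and 281 ± 23.3 (SD, n = 4 each), and the log2 fold change was -0.60 (SE 0.135, limma adjusted p = 0.0165). Without control replicate 2, its highest control, the log2 fold change was -0.51 and the adjusted p 0.0546. Hcn3 lies on chromosome 3 (89146074 to 89160196), where 711 of its 4154 exonic bases overlap exons of Pklr on the other strand. Reads that fall in both genes were counted for neither.

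Hcn2, the most abundant HCN transcript here, did not pass the test. It had 11671.5, 8049, 7677 and 7006 normalized counts in control mice and 6349, 5794, 4979 and 7633 in KI mice. KI replicates 1 to 3 lay below all controls, and KI replicate 4 lay between control replicates 3 and 4. The means were 8601 ± 2092 and 6189 ± 1115 (SD, n = 4 each), and the log2 fold change was -0.46 (SE 0.173, limma adjusted p = 0.0795). The adjusted p was 0.0284 without KI replicate 4 and 0.0386 by DESeq2 on the recovered reads, so the call depended on these settings. Without control replicate 1, the highest library, the log2 fold change was -0.31.

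**Figure D2:**
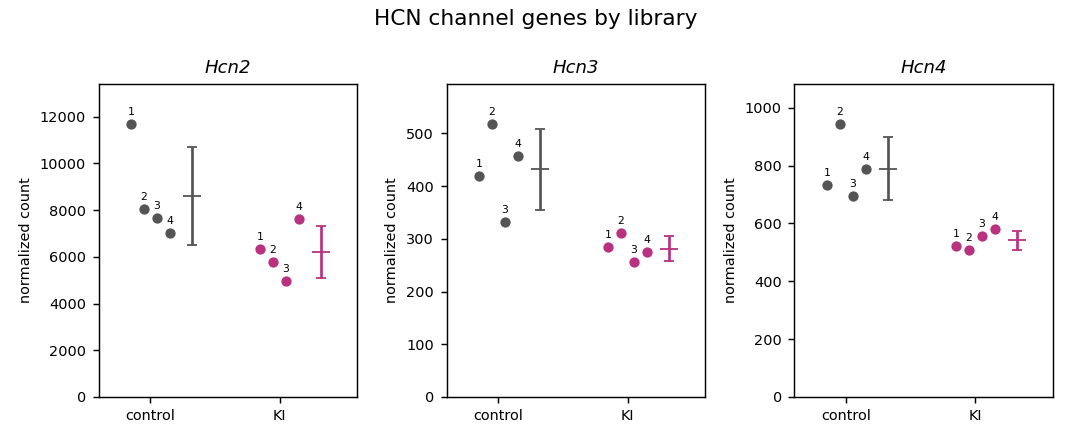
Normalized counts of Hcn2, Hcn3 and Hcn4 in each library, with control libraries in gray and KI libraries in color, labeled by replicate number, and the mean ± SD of each group beside them (n = 4). Hcn3 and Hcn4 show no overlap between groups; in Hcn2, KI replicate 4 at 7633 reaches the range of the controls.

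Per kilobase of exon, Hcn2 was far above Hcn3 and Hcn4. The mean level over the 8 libraries was 2314 normalized counts per kilobase for Hcn2, 85.8 for Hcn3 and 109 for Hcn4.

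The promoters of Hcn2 and Hcn4, whose estimates are both negative, and of Cacnb4, the called gene that rose, are shown because they differ in their GC boxes (GGGCGG or CCGCCC, the motif read by Sp1-type factors). Each window is RefSeq sequence of GRCm38.p6 on the gene's own strand, from 250 bases before to 50 bases after the annotated start, with GC boxes in capitals. For Cacnb4 the window shown is the furthest upstream of 3.
Hcn2 promoter, chr10:79716384-79716683, plus strand: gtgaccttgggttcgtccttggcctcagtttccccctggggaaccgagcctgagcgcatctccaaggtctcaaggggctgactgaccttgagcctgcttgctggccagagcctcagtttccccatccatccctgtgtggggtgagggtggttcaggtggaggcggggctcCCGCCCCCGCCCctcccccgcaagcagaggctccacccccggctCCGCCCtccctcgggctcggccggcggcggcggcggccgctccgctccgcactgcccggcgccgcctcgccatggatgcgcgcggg
Hcn4 promoter, chr9:58822699-58822998, plus strand: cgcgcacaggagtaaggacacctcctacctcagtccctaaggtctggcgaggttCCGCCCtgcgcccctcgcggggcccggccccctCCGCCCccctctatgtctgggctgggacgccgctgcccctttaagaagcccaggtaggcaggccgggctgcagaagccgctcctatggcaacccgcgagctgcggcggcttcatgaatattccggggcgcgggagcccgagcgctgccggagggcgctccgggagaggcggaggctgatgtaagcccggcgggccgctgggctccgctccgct
Cacnb4 promoter, chr2:52676094-52676393, minus strand: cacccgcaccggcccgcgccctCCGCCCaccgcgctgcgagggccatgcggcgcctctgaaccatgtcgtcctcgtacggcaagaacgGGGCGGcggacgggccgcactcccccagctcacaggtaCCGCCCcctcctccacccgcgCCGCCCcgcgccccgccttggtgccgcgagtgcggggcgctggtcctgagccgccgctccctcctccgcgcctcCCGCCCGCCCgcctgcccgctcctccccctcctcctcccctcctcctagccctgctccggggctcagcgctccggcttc
GC boxes were found on either strand at 3 places in the Hcn2 window, at 2 in Hcn4 and at 6 in Cacnb4, with overlapping matches counted separately, and none was found in the other windows of Cacnb4 or in those of Scn8a. Hcn3 and Cacna2d4 had no entry. Windows of 32 of the channel genes, tested or not, were matched, and 18 of their 43 windows (41.9%) held a GC box, against 35.7% of all 32851 windows of this length. The channel gene windows were also richer in GC, with a median of 59.7% against 52.7% over all windows. The RefSeq start of Hcn4 lies upstream of the GENCODE start given above. The whole Cacnb4 window lies inside the GENCODE gene (52428320 to 52676831), downstream of its start, so its GC boxes may lie in transcribed sequence. Windows with 6 GC boxes were also found for Cacna1c, Cacna1d and Cacna2d3, whose estimates are negative. A window with 7 was found for Cacna2d1, whose estimate is positive. The match to these letters is a description of the sequence alone. Since the windows shown were picked for their difference in GC boxes, they say nothing on the direction of change.

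Among sodium channel alpha subunits, Scn8a fell and the other 6 tested did not pass. Scn8a had 9290.5, 8669, 9446 and 8931 normalized counts in control mice and 7218, 7254, 7144 and 8596 in KI mice. All KI libraries lay below all controls, with KI replicate 4 just under the lowest control. The mean was 9084 ± 351 in control and 7553 ± 697 in KI mice (SD, n = 4 each), a log2 fold change of -0.27 (SE 0.0757, limma adjusted p = 0.0323). Without KI replicate 4 it was -0.33 with an adjusted p of 0.00255. Leaving out any one of the other 7 libraries gave an adjusted p of 0.0522 to 0.0971, with a log2 fold change of -0.29 to -0.24. Scn8a lies on chromosome 15 (100869858 to 101045938).

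Scn1a (Nav1.1), typical of inhibitory and other fast-firing neurons, had the highest count of the alpha subunits and differed little between groups. It had 9375 to 10104 normalized counts in control and 9764 to 10742 in KI mice, with means of 9819 ± 344 and 10137 ± 453 (SD, n = 4 each), and the log2 fold change was 0.046 (SE 0.0620, limma adjusted p = 0.626). Scn2a had a wide spread among controls, from 2140.3 in control replicate 1 to 4282 in control replicate 4, which enclosed all KI libraries (2641 to 3383). Scn3a, an alpha subunit prominent before and around birth, was at 838.8 to 1379.8 in control and 858 to 1283 in KI mice. Other alpha subunits were low: Scn9a, known from sensory neurons, had library values of 298.2 to 408.3, and Scn7a, a sodium sensor of glia, 88.3 to 151.

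Expressed as a share of the summed per-kilobase level of the alpha subunits, Scn1a made up 47.9 ± 1.17% in control mice and 52.0 ± 0.672% in KI mice (SD, n = 4 each). The control libraries lay between 46.3% and 49.2% and the KI libraries between 51.3% and 52.9%, without overlap. The shares add up to a fixed whole, so a lower share of Scn8a raises those of the others. The count of Scn1a itself overlapped between groups, with a log2 fold change of 0.046. The share of Scn8a was 31.4 ± 2.35% in control and 27.4 ± 1.36% in KI mice, and here KI replicate 4, at 29.2%, passed the lowest control at 29.0%. Within a library, a ratio does not depend on the size factor, and it is given as a description, with no test. Scn8a against Scn2a, the pair that changes over as nodes mature, gave a log2 ratio of 1.57 ± 0.462 in control and 1.38 ± 0.213 in KI mice, and the groups overlapped widely. The difference of -0.19 was -0.0048 without control replicate 1 and -0.36 without control replicate 4. The log2 ratio of Scn1a to Scn3a was 3.23 ± 0.263 in control and 3.38 ± 0.259 in KI mice and overlapped as well.

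**Figure D3:**
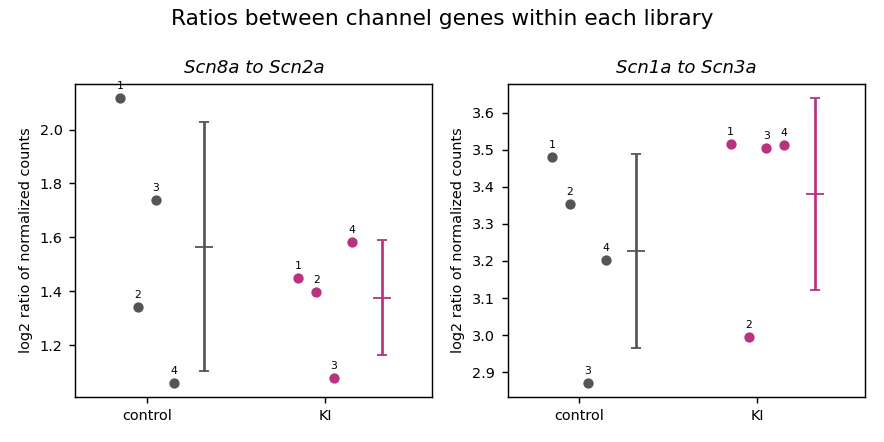
Log2 ratio of normalized counts of Scn8a to Scn2a and of Scn1a to Scn3a in each library, labeled by replicate number, with the mean ± SD per group (n = 4); the axes do not start at 0. The groups overlap for both ratios, with means of 1.57 and 1.38 for Scn8a to Scn2a and of 3.23 and 3.38 for Scn1a to Scn3a.

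None of the 4 sodium channel beta subunits passed the test. Scn4b, which contributes to resurgent current in fast-firing neurons, had the highest count of the family. It had 12075, 9566, 9761 and 8115 normalized counts in control mice and 9080.4, 9057, 6763 and 11051 in KI mice. These groups overlapped, with means of 9879 ± 1638 and 8988 ± 1753 (SD, n = 4 each), and the log2 fold change was -0.14 (SE 0.159, limma adjusted p = 0.543). Scn3b had 1278 to 1880.3 in control and 1229 to 1532 in KI mice (log2 fold change -0.29, limma adjusted p = 0.135). Without control replicate 1 its value was -0.40 with an adjusted p of 0.0405. Scn2b overlapped between groups, at 5488 to 8465 and 5069.7 to 7011.

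None of the 9 calcium channel pore genes tested passed, and 8 of the 9 estimates were negative, with a median of -0.12. Over all genes tested, 7629 of 15123 estimates were negative. After the correction for GC content and length given below, Cacna1a, Cacna1e, Cacna1h and Cacna1i were above 0. Cacna1b, Cacna1c, Cacna1d and Cacna1g stayed below 0 under it. Cacna1a, the P/Q-type channel of Purkinje cells and of most central synapses, had the highest mean. Its normalized counts were 2676, 3212, 2971 and 3343 in control and 2611, 2412, 3041 and 2862 in KI mice. The groups overlapped, with means of 3050 ± 293 and 2732 ± 277 (SD, n = 4 each), and the log2 fold change was -0.16 (SE 0.0944, limma adjusted p = 0.243). The N-type gene Cacna1b (-0.12), the L-type genes Cacna1c (-0.15) and Cacna1d (-0.082) and the R-type gene Cacna1e (-0.049) had smaller log2 fold changes. The T-type genes Cacna1g, Cacna1h and Cacna1i, whose channels open at low voltage and support burst firing, were at -0.25, -0.15 and -0.047. Cacna1s, the pore of the skeletal muscle channel, had only 8.03 to 33.1 normalized counts per library, and 1309 of its 6550 exonic bases overlap exons of an antisense gene, Gm37759. Of the 7 skeletal muscle markers, 2 reached the level for testing and neither passed, and the list summed to 66.0 to 120 normalized counts in control and 80.3 to 97.5 in KI mice.

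The alpha2delta family held the largest change among the channel genes. Cacna2d4, a subunit known mainly from photoreceptor synapses, had 292.4, 239.7, 222.5 and 192.4 normalized counts in control mice and 98.5, 56.9, 67.2 and 190.5 in KI mice. KI replicates 1 to 3 were far below the controls, and KI replicate 4 lay just under control replicate 4. The mean was 237 ± 41.9 in control and 103 ± 60.8 in KI mice (SD, n = 4 each), and the log2 fold change was -1.34 (SE 0.335, limma adjusted p = 0.0223). Without KI replicate 4 it was -1.68 with an adjusted p of 0.000695, and without control replicate 4 the adjusted p was 0.0305. Leaving out any one of the other 6 libraries gave an adjusted p between 0.0506 and 0.0652. Cacna2d4 lies on chromosome 6 (119236526 to 119352407), and per kilobase it was the lowest of its family, at 17.9 normalized counts.

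Cacna2d2, the alpha2delta subunit of Purkinje cells, had the highest mean of the family. It had 2251, 2989, 2636 and 3240.0 normalized counts in control and 2201, 2409.8, 2489 and 2368 in KI mice, and only control replicate 1 lay in the KI range. The means were 2779 ± 431 and 2367 ± 122 (SD, n = 4 each), the log2 fold change was -0.22 (SE 0.108, limma adjusted p = 0.163), and without control replicate 1 it was -0.32 with an adjusted p of 0.0431. Cacna2d1, the gabapentin-binding subunit, and Cacna2d3 did not pass, with log2 fold changes of 0.14 and -0.22.

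Among the beta subunits Cacnb4, the gene mutated in the ataxic lethargic mouse, rose. It had 2832, 3359, 3944 and 3832 normalized counts in control mice and 4112, 4140.1, 4919.8 and 5116 in KI mice. Every KI library was above every control, with the nearest pair at 3944 and 4112. The mean was 3492 ± 508 in control and 4572 ± 521 in KI mice (SD, n = 4 each), a log2 fold change of 0.39 (SE 0.119, limma adjusted p = 0.0411). The adjusted p was 0.0497 without control replicate 3 and 0.0420 without control replicate 4. It was 0.0554 to 0.106 when any one of the other 6 libraries was left out, with a log2 fold change of 0.30 to 0.44. Cacnb4 lies on chromosome 2 (52428320 to 52676831), and 1433 of its 8963 exonic bases overlap exons of A430018G15Rik on the other strand. Cacnb1 (-0.19), Cacnb2 (0.17) and Cacnb3 (0.029) did not pass.

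**Figure D4:**
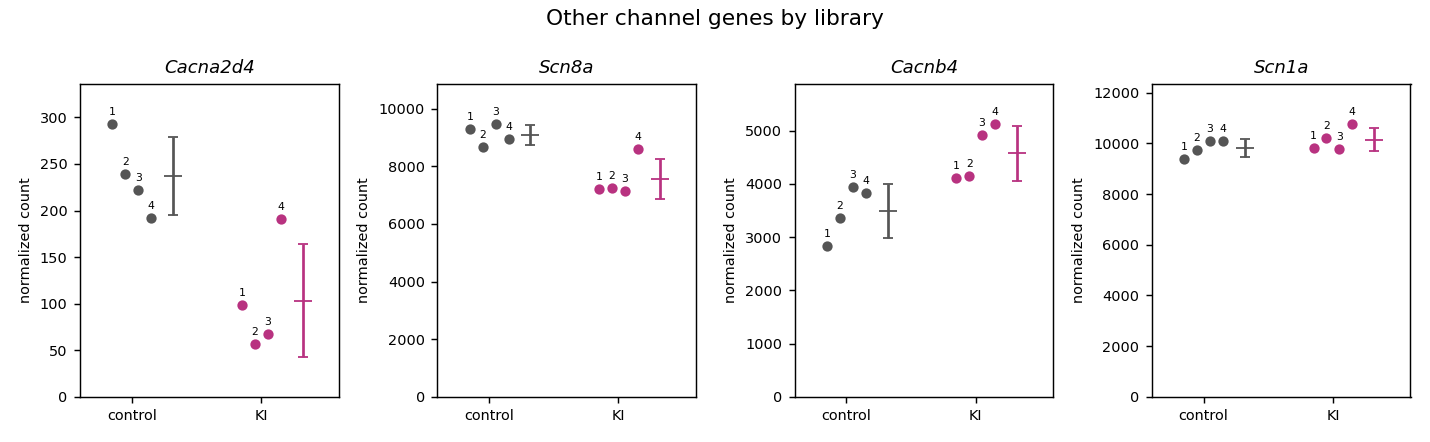
Normalized counts of Cacna2d4, Scn8a, Cacnb4 and Scn1a in each library, labeled by replicate number, with the mean ± SD per group (n = 4). KI replicate 4 is the KI library nearest to the controls in Cacna2d4 (190.5) and Scn8a (8596), and Scn1a overlaps between groups.

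Of the 7 gamma subunit genes, 5 were tested and none passed. Cacng7 had the highest mean, with 4718, 4535, 4494 and 4908 normalized counts in control and 4258, 4212, 4666 and 4109.9 in KI mice. Only KI replicate 3 lay within the control range. The means were 4664 ± 189.6 and 4311 ± 244 (SD, n = 4 each), and the log2 fold change was -0.11 (SE 0.0622, limma adjusted p = 0.206). Cacng2 (stargazin), an AMPA receptor partner of cerebellar granule cells and other neurons, had a log2 fold change of 0.13 (limma adjusted p = 0.188). Cacng3, Cacng5 and Cacng8 were between -0.11 and 0.012.

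KI replicate 4 was the KI library nearest to the control mean in Hcn2, Hcn4, Cacna2d4 and Scn8a. It was KI replicate 2 for Hcn3 and KI replicate 1 for Cacnb4. KI replicate 4 was also the KI library with the lowest Gt(ROSA)26Sor and Pdgfra counts and the one with high Xist, and the part of these in the results was not tested. In the 5 libraries low in Xist alone, Hcn4, Hcn3, Cacna2d4 and Scn8a passed the threshold, and Cacnb4 did not (log2 fold change 0.41, limma adjusted p = 0.125). With log2 Xist as a covariate, Hcn4, Hcn3 and Cacnb4 passed, and the limma adjusted p was 0.0568 for Cacna2d4 and 0.0727 for Scn8a. No value can be given within the libraries high in Xist, which hold a single KI library. With the libraries low in Ttr left out (control replicate 4 and KI replicate 3), Hcn4 alone passed (-0.55, limma adjusted p = 0.0399), and the other 4 had adjusted p-values of 0.0595 to 0.0994.

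The log2 fold change of a gene was related to the GC content of its transcript, and the channel genes cover a wide range of it, up to 65.4% (Hcn2). Across the 37 genes the correlation of log2 fold change with GC content was -0.36 (Pearson) or -0.42 (Spearman), and over all genes tested Pearson's r was -0.23. The points share the same 8 libraries and genes are not independent replicates. Of 9 channel genes under 45% GC, 2 had a negative log2 fold change, and the median was 0.13, against 0.14 over all genes in that range. Of 14 with 45 to 55%, 12 were negative (median -0.13, all genes -0.033), and of 14 at 55% or more, 11 were negative (median -0.18, all genes -0.093). After a loess correction for GC content and length, the median of the channel genes was 0.0040.

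Under that correction 15.7% of all genes tested were called, and 6 of the channel genes. Hcn4 (-0.34, limma adjusted p = 0.0395), Hcn3 (-0.42, 0.0487), Cacna2d4 (-1.17, 0.0458) and Cacnb4 (0.31, 0.0466) passed with the same sign as before. Scn8a did not (-0.18, limma adjusted p = 0.119), nor did Hcn2 (-0.27, limma adjusted p = 0.323). Cacng2 (0.28) passed only under this setting, with a limma adjusted p of 0.0409.

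**Figure D5:**
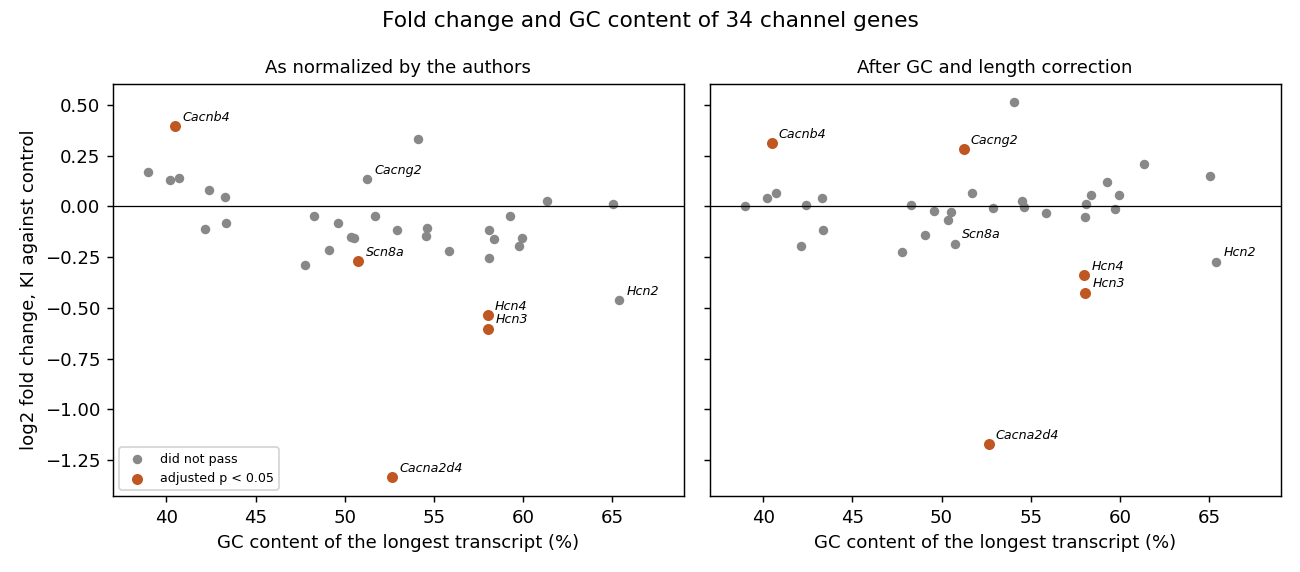
Log2 fold change of 34 of the 37 channel genes, KI against control, against the GC content of the transcript in percent, before and after the loess correction for GC content and length. Before correction Cacnb4 lies at the low-GC end and above 0 and Hcn2 at 65.4% GC lies at -0.46; after correction the Pearson correlation over all 37 is -0.037.

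Proteins that bind these channels were read from a list of 28 partner and scaffold genes, all of which were tested. Of these 4 rose, none fell, and the median log2 fold change was 0.13. Among them were Fgf12 (0.45, limma adjusted p = 0.00884) and Fgf14 (0.34, 0.0355), intracellular FGF homologs that bind the tail of sodium channel alpha subunits, and Calm2 (0.36, 0.0108), which encodes calmodulin, a calcium sensor bound to sodium and calcium channels. The gene furthest in the other direction was Pex5l (TRIP8b), an auxiliary subunit of HCN channels, at -0.39 with a limma adjusted p of 0.164. The count of 4 higher is 14.3% of the list, against 12.0% of all genes tested.

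Of 23 genes of intracellular calcium release and clearance, all tested, 5 fell, none rose and 18 did not pass, and the median was -0.17. Those with the smallest p were the sodium/calcium exchangers Slc8a1 (-0.53, limma adjusted p = 0.0166) and Slc8a3 (-0.37, 0.0265), the plasma membrane pump gene Atp2b3 (-0.44, 0.0167) and the inositol trisphosphate receptor Itpr2 (-0.31, 0.0319). Atp2a2, the pump of the endoplasmic reticulum, was the other (-0.24, limma adjusted p = 0.0473). Itpr2 is also on the list of newly formed OL markers. Orai2, a store-operated channel subunit, lay furthest in the other direction (0.39, limma adjusted p = 0.0741). The 5 that fell were 21.7% of the list, against 12.4% of all genes.

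Genes of the cells that could carry these channels were summed per library. Over all genes tested, 12.0% were called higher and 12.4% lower, the background for each count here. Of the 20 pan-neuronal genes 2 rose (10%) and 2 fell (10%), and the median was 0.041, with sums of 310107 to 337537 normalized counts in control and 325703 to 350706 in KI mice. Of the 9 cerebellar granule cell markers, 9 Purkinje cell markers, 7 motor and cholinergic neuron markers and 5 glycinergic neuron markers, none passed the test. The medians were -0.056, 0.17, -0.40 and -0.18, and the sums of the motor and cholinergic list were 7218 to 10459.9 in control and 4592 to 8106 in KI mice. Of 8 OPC markers 6 fell (75%) and 1 rose (median -2.11, sums 23282 to 25129 in control and 15542 to 19546 in KI mice). The 1 that rose was Pdgfra, whose count may include reads of the human cDNA. Without Pdgfra the sums were 20263 to 22042 in control mice, 6603 to 7914 in KI replicates 1 to 3 and 16278 in KI replicate 4. Of 12 OL markers 8 fell (66.7%) and none rose (median -1.11, sums 1102170 to 1674290 and 463065 to 1371520). Of 12 astrocyte markers 8 rose (66.7%) and none fell (median 0.69, sums 186681 to 224525 and 250345 to 432105). None of the 8 microglia markers passed (median 0.096), 2 of the 10 endothelial and mural markers fell (20%, median -0.19), and none of the 7 choroid plexus markers passed, with sums of 424 to 103082 in control and 842 to 35916 in KI mice. One of the 2 endothelial and mural markers that fell, Cspg4, is also among the OPC markers that fell. No list had a gene at 0 in all libraries, and the part of these differences in the channel results was not tested.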

How the data were processed

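RNA-seq of the BS of 4 control and 4 KI mice was read from the authors' table, in which 628 of the 24709 lines repeated a gene and were left out, leaving 24081 genes. The authors aligned paired-end reads to mm10 with STAR 2.7, counted them per gene with HTSeq-count without strand, leaving out ambiguous and multiply aligned reads, and used DESeq2. Reads shared by near-identical genes are therefore missing, and such genes may be undercounted. The deposited signal is each gene's count after scaling by the authors with DESeq2 size factors. Multiplying back gave whole reads for 100% of the values (tolerance 0.01). The table also holds the authors' log2 fold changes with standard errors, Wald statistic, p-values and group means, which were not used.

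Genes with a mean of 10 or more normalized counts (15123) were tested with limma 3.58.1 in R 4.3.3 on log2(normalized count + 1) with a variance trend and a Benjamini-Hochberg threshold of 0.05. limma was used because the values are normalized. The steps were run on simulated counts before use. Those counts held no GC trend and no outlying library, so they do not test the steps under these features of the data. The p-values set the difference between the groups against the spread among libraries within the groups, for these 8 libraries. Nothing in the labels says how the animals of a group were related, and the test took the libraries as independent. Depth limits the precision of genes with few counts, and size factors do not remove it. Alternatives were DESeq2 1.42.0 and edgeR 4.0.16 on the recovered reads, TMM and upper-quartile scaling, no filter, pseudocounts of 0.1 and 10, a replicate block, a log2 Xist covariate, each library left out, both libraries low in Ttr left out, a loess correction (span 0.3) for GC content and length from GENCODE vM21 (GRCm38) and, chosen after seeing the data, the libraries low in Xist alone. Replicate numbers mark no stated pairs.

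Full statistics were given for called genes and for the gene with the highest mean in each family. Of each of the 15 gene lists, up to 4 called genes with the smallest p and the gene furthest the other way could be named. The other channel genes got single values or ranges. A few genes are counted in totals but not reported here. Atp2a2 was named besides, after its value was seen, to complete a short count. The genes and lists were chosen with earlier results of these data known.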

Additional observations from a re-analysis of the deposited data

Results flagged for a closer look

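Among 74 groups of 4 libraries (37 tested channel genes in control and in KI mice), 3 had a library far from the other libraries of its group, by Dixon's criterion at the 95% level. Chance alone flags about 1 in 20 such groups. Cacna1e, the R-type calcium channel, had 1365 normalized counts in control replicate 1 and 2056 to 2134 in the other controls. Cacng3, an AMPA receptor partner, had 419 normalized counts in KI replicate 1 and 461 to 466 in the other KI libraries. Scn8a had 8596 normalized counts in KI replicate 4 and 7144 to 7254 in the other KI libraries.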

How the results depend on the processing

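The count of channel genes past the threshold was 5 in the reported fit, 3 with log2 Xist as a covariate, 1 without the libraries low in Ttr and 1 to 5 when 1 library was left out. The lowest was without control replicate 2, and 2 were called without KI replicate 1, 2 or 3. Over all genes 3685 were called, against 2210 with log2 Xist as a covariate, 1836 without the libraries low in Ttr, 1910 in the libraries low in Xist, 2367 after the correction for GC content and length and 888 to 5296 when 1 library was left out, lowest without control replicate 2 and highest without KI replicate 4. With the replicate number as a block, 0 genes and 0 channel genes were called by limma, although 5087 genes and 8 channel genes had an unadjusted p under 0.05. Between libraries with the same number, the deviations from the group means had correlations of 0.26, -0.12, -0.46 and -0.36. Between libraries with different numbers the correlations ran from -0.24 to 0.58, highest for control replicate 4 with KI replicate 3, the libraries low in Ttr. The labels state no pairing, and these values cannot decide whether the numbers mark one, since other differences between libraries enter them too. The median log2 fold change of the channel genes was 0.0040 after the GC and length correction and -0.22 to -0.037 when 1 library was left out. Over the 20 alternatives, Hcn4 passed in 19, Hcn3 in 17, Cacna2d4 and Cacnb4 in 11 each, Scn8a in 9 and Hcn2 in 2, and none of these changed sign.

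The sign changed under at least 1 alternative for 16 genes, none past the threshold on either side. With log2 Xist as a covariate, the log2 fold change was 0.10 for Cacna1e, -0.031 for Cacna1s, -0.0026 for Cacnb3 and -0.053 for Cacng8. Without the pair of libraries low in Ttr, the log2 fold change was -0.00075 for Cacnb3, 0.042 for Cacng3, 0.018 for Cacng5, -0.0029 for Cacng8 and 0.0055 for Scn2a. In the libraries low in Xist, the log2 fold change was 0.046 for Cacna1e, -0.083 for Cacng8 and 0.035 for Scn3a. After the GC and length correction, the log2 fold change was 0.054 for Cacna1a, 0.0073 for Cacna1e, 0.057 for Cacna1h, 0.12 for Cacna1i, 0.065 for Cacng5, 0.012 for Cacng7 and 0.028 for Scn4b. When 1 library was left out, the values that crossed 0 ranged from -0.21 to 0.00051 for Cacna1d, -0.20 to 0.014 for Cacna1e, -0.21 to 0.13 for Cacna1i, -0.040 to 0.26 for Cacna2d1, -0.054 to 0.085 for Cacnb3, -0.26 to 0.056 for Cacng3, -0.22 to 0.10 for Cacng5, -0.085 to 0.094 for Cacng8, -0.25 to 0.079 for Scn2a, -0.24 to 0.023 for Scn3a and -0.0079 to 0.14 for Scn9a. The cause was not tested.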

Other observations

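The control libraries differed among themselves in an ordered way across the channel genes. Control replicate 1 was the lowest control in 23 of the 37 tested genes (62.2%, against 29.9% of all genes tested), and control replicate 4 was the highest control in 23 (62.2%, against 30.3%). Both held together in 18 of the 37 (48.6%, against 15.9%), and in 7 of the 9 calcium channel pore genes tested. Hcn2, Scn4b and Cacna2d4 had the opposite order, with control replicate 1 highest (11671.5, 12075 and 292.4 normalized counts) and control replicate 4 lowest (7006, 8115 and 192.4). Control replicate 4 is also the control low in Ttr. Channel genes share libraries and cells of origin, so these counts are a description of 4 libraries, with no test. Without control replicate 1 the median log2 fold change of the channel genes, KI against control, was -0.22, and without control replicate 4 it was -0.037.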
